A study of Mus musculus with 6 samples.

Results

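Interferon response genes were examined in mouse bone marrow stem cells that expressed BCR/ABL, the fusion kinase that drives chronic myeloid leukaemia. The set was a list of 36 genes that interferons induce, among them the transcription factors of the response, sensors of foreign nucleic acid and antiviral effectors. A gene entered when a probe set of the array was annotated to it and to no other gene, and the probe set with the highest mean signal over the 6 arrays stood for it. This gave 34 of the 36 genes, out of 18193 genes measured in the same way. Isg15 and Ifi44 had no probe set annotated to them alone and are not analysed here.

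Cells were sorted as GFP+Lin-c-Kit+Sca-1+ from bone marrow of mice that the labels call CML mice, for chronic myeloid leukaemia. Vector cells carried the empty GFP vector, BCR/ABL cells expressed the fusion, and the last group consisted of BCR/ABL cells whose donors received imatinib, an inhibitor of that kinase. Each of the 3 groups had 2 arrays, and all groups were transduced, sorted for GFP and drawn from bone marrow. According to its design text, the series set out to identify genes under the control of BCR/ABL. The sources used here do not state how old the mice were, their strain, or how much imatinib they received and for how long. Nor do they say whether both arrays of a group came from different animals, so the p-values reflect only the spread of these samples, and that spread may be technical. Kit, the receptor used in the sort, had deposited intensities of 1637 and 2125 in vector cells, 1332 and 1116 in BCR/ABL cells, and 2659 and 2602 in those with imatinib. Ly6a, which encodes Sca-1, had no probe set of its own in the annotation used.

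Interferons are secreted proteins that bind receptors on the cell surface and activate Janus kinases, Jak1 and Tyk2 for type I interferons and Jak1 and Jak2 for interferon gamma. These phosphorylate STAT proteins. Type I interferons direct a complex that holds Stat2 and Irf9 to the interferon-stimulated response element (ISRE), whereas interferon gamma acts mainly through the gamma-activated sequence (GAS). In haematopoietic stem cells, acute interferon exposure is known to bring dormant cells into cycle, and interferon alpha was a treatment of chronic myeloid leukaemia before imatinib.

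Promoter stretches are shown for 8 of the genes, because the response is known to act through elements in promoters and because these genes showed the different patterns described below; that of Irf9 held no match. RefSeq promoter sequences of build GRCm38.p6 were at hand for 27 of the 36 genes; those of Usp18, Dhx58, Oas2, Parp9, Parp14, Mx1, Mx2, Zbp1 and Rtp4 were not used here. The sequences run 5′ to 3′ on the strand of the gene and end at the base before the annotated start. Capitals mark a match to the ISRE core, searched as GAAA, any 2 bases and GAAA on both strands, or to GAS, searched as TTCNNNGAA. On the opposite strand an ISRE core reads TTTC, any 2 bases and TTTC, and overlapping matches run together as 1 block of capitals. Ifit1 (chr19:34640739-34640888, plus strand), Gbp2 (chr3:142620513-142620662, plus strand) and Rsad2 (chr12:26456453-26456602, minus strand) were far higher on 1 BCR/ABL array than on the other. Ifit3 (chr19:34583279-34583528, plus strand) lies near Ifit1 on the same chromosome and did not show that difference. Bst2 (chr8:71537473-71537622, minus strand) was lower with imatinib. Trim30a (chr7:104465194-104465343, minus strand), Irf1 (chr11:53769864-53770013, plus strand) and Irf9 (chr14:55603835-55603984, plus strand) were lower on both BCR/ABL arrays than on both vector arrays.
Ifit1: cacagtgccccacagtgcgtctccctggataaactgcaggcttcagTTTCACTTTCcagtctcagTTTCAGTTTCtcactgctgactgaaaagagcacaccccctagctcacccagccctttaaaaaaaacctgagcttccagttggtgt
Gbp2: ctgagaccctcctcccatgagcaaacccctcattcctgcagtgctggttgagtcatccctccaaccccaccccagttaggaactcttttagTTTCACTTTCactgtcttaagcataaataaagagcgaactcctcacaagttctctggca
Rsad2: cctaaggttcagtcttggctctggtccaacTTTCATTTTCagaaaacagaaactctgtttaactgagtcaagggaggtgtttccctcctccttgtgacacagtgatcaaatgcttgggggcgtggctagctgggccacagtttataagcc
Ifit3: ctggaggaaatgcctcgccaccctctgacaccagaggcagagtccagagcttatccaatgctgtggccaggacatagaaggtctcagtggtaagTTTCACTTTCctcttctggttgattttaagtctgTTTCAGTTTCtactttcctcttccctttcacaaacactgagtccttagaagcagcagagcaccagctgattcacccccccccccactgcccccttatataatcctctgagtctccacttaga
Bst2: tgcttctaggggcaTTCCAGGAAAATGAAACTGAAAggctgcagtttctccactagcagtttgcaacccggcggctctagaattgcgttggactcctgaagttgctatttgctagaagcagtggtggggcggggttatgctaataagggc
Trim30a: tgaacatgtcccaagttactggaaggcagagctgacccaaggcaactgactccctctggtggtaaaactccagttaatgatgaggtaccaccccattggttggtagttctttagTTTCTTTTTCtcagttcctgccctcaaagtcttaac
Irf1: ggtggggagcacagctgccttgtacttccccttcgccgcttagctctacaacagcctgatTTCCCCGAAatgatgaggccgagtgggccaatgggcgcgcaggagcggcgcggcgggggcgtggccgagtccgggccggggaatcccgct
Irf9: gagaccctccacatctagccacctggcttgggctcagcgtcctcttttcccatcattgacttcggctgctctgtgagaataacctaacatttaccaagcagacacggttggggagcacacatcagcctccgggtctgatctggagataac

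Over the whole promoter window, from 250 bases before to 50 bases after a start, an ISRE core was found in 14 of the 27 genes (51.9%), against 3.99% of the 27025 genes with a window. A longer form of the element, GAAAC, 1 free base and GAAAC, which overlaps the core by construction, was found in 6 of the 27 (22.2%) against 0.241% of all. The GAS letters were found in 6 of the 27 (22.2%) against 9.55%. Ifit1 held 2 ISRE cores, at 104 and 85 bases before its start, and Ifit3 held 2, at 156 and 122 bases before. In Bst2 and Oas1a both ISRE and GAS matches were present, Irf1 had a GAS match 90 bases before its start, and Irf9 had neither in its 2 annotated windows. A match is a description of the letters and not a measured site.

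Of the 34 genes, none had a deposited intensity under 16 on any array, whereas 31.1% to 34.1% of all genes lay under 16 on an array, and 33 of the 34 lay above the median gene. Their median stood at the 68.5th percentile of all genes. The highest mean intensities were those of Trim30a at 4596, Ifi35 at 4245 and Trim25 at 4018, and the lowest was that of Mx2 at 39.5. These are probe set signals and not amounts of RNA per length, so the order is only one of array signal. Pairs of arrays correlated over genes at 0.973 for vector cells, 0.993 for untreated BCR/ABL cells and 0.987 for imatinib, and the vector arrays therefore differed the most.

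Arrays of the same group differed in how often they held the highest level of a gene. BCR/ABL replicate 1 was the highest array for 10 of the 34 genes, namely Mx1, Mx2, Ifit1, Ifit2, Irf7, Rsad2, Usp18, Gbp2, Cmpk2 and Zbp1, and the lowest for 3. BCR/ABL replicate 2 was the highest for 3 and the lowest for 11. Vector replicate 1 was the highest for 12 and the lowest for 1, and imatinib replicate 1 was the highest for none and the lowest for 14. Over all genes, each array was the highest for 13.9% to 20.7% and the lowest for 12.7% to 23.6% of genes.

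**Figure D1:**
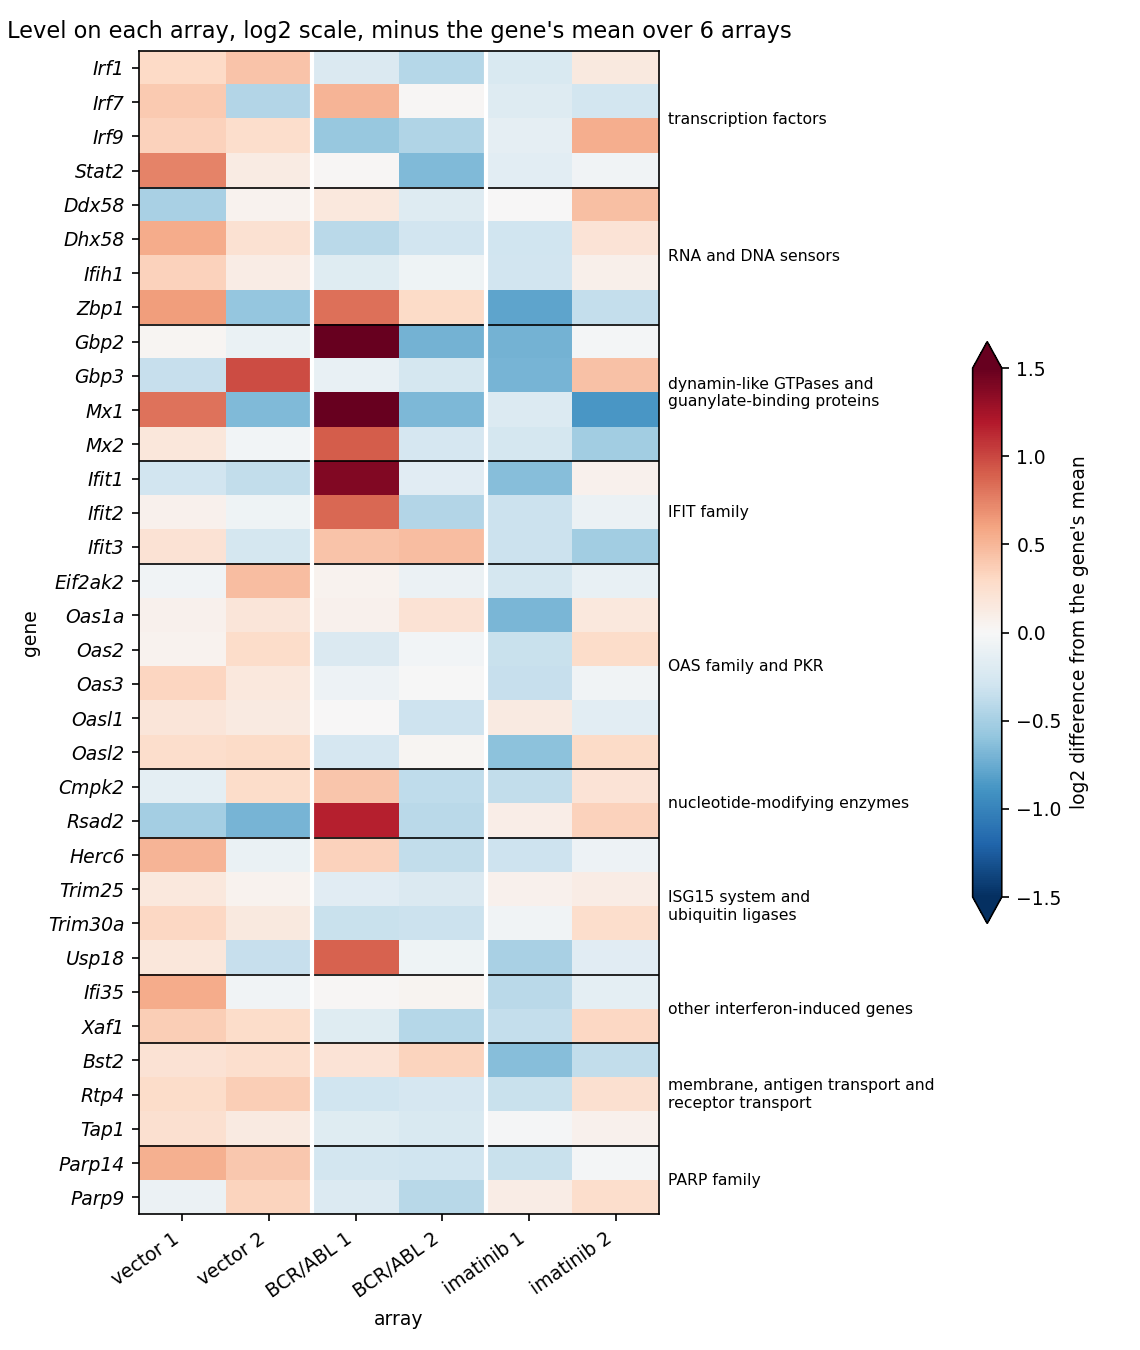
Colour gives the normalised log2 level of each of the 34 genes (rows, grouped by role) on each of the 6 arrays (columns) minus that gene's mean over the 6 arrays, with red above and blue below and the scale ending at 1.5 in either direction. The column of BCR/ABL replicate 1 holds the strongest reds, at Mx1, Gbp2, Ifit1 and Rsad2, while the column of BCR/ABL replicate 2 beside it is pale or blue in those rows.

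The question whether the response genes stood at one level within the BCR/ABL group was taken first, because its 2 arrays differed in them. Mx1, a dynamin-like GTPase that blocks viral ribonucleoproteins, had intensities of 2174 in BCR/ABL replicate 1 and 421.1 in replicate 2, against 1231 and 423.9 in vector and 608.3 and 401 with imatinib. Gbp2, a guanylate-binding protein that attacks the vacuoles of intracellular pathogens, had 2311 and 457.2 in BCR/ABL, 792.3 and 717.7 in vector, and 478.4 and 787.1 with imatinib. Both genes were high on 1 BCR/ABL array. The other BCR/ABL array lay under both vector arrays for Gbp2 and was level with vector replicate 2 for Mx1. On the scale of log2(intensity + 16) after normalisation, the difference between the BCR/ABL arrays was 2.26 for Mx1, or 4.78-fold, and 2.23 for Gbp2, or 4.70-fold. They ranked 7 and 8 of 18193 genes by that difference.

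Rsad2, which encodes viperin, an enzyme that makes a chain-terminating nucleotide, had intensities of 4430 and 1493 in BCR/ABL replicates 1 and 2, 1358 and 1202 in vector, and 2109 and 2448 with imatinib. Ifit1, which binds foreign RNA ends, had 1650 and 525.8 in BCR/ABL, 495.2 and 451.9 in vector, and 389.8 and 658.3 with imatinib. Ifit2, of the same family, had 1380 and 533.2 in BCR/ABL, 766.1 and 694.2 in vector, and 595 and 717.9 with imatinib. For Rsad2 and Ifit1 both BCR/ABL arrays lay above both vector arrays, but replicate 2 by little. Mx2, the dimmest of the genes, had 68.5 and 26.9 in BCR/ABL, 48.3 and 35.5 in vector, and 30.8 and 27.3 with imatinib. The log2 difference between the BCR/ABL arrays was 1.57 for Rsad2, 1.57 for Ifit1, 1.30 for Ifit2 and 1.16 for Mx2.

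These 6 genes were more than 2-fold higher in BCR/ABL replicate 1 than in replicate 2, against 1.37% of all genes, and none of the 34 was more than 2-fold lower, against 0.61% of all genes. The median difference over the 34 was 0.18, with 22 higher and 12 lower, beside 0.01 over all genes. The vector arrays differed by more than 2-fold upwards in replicate 1 for 2 of the 34, Mx1 at 1.48 and Zbp1 at 1.21, against 5.39% of all genes, and downwards for Gbp3 at -1.32, against 4.31%. With imatinib, replicate 1 was lower for 29 of the 34 (median -0.31), more than 2-fold for 1, Gbp3 at -1.15, against 1.71% of all genes, and more than 2-fold higher for none, against 2.59%. No test can be made of a difference between 2 single arrays, and these values describe those arrays only.

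**Figure D2:**
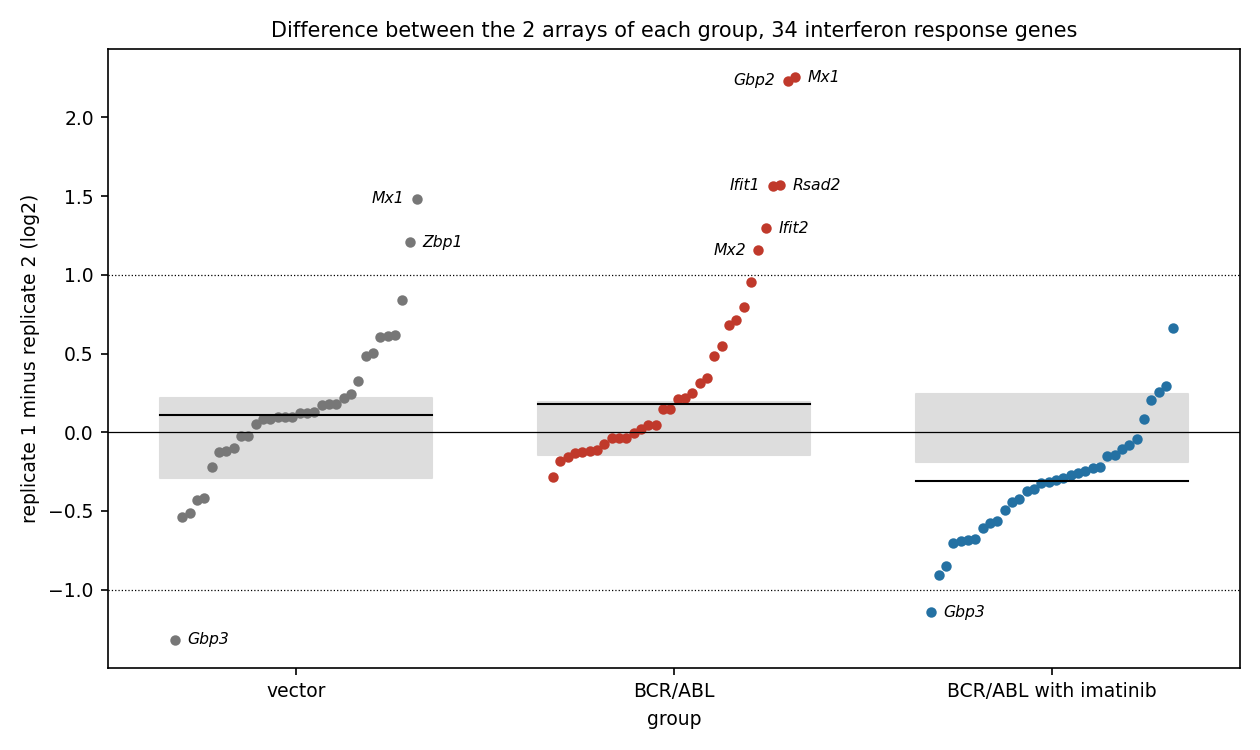
Each point is 1 of the 34 genes, placed by its level on replicate 1 minus replicate 2 of the same group on the log2 scale; the black line is the median of the 34, the grey band spans the middle quartiles of all 18193 genes and dotted lines mark 2-fold. In BCR/ABL, Mx1, Gbp2, Rsad2, Ifit1, Ifit2 and Mx2 stand above the upper dotted line at 1.16 to 2.26, while in the imatinib group the median of -0.31 lies under the grey band.

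The next genes by the size of that difference stood under 2-fold on the probe set that represents them. Usp18, the protease that removes Isg15 from proteins and damps the type I receptor, had 2461 and 1252 in BCR/ABL, 1440 and 1009 in vector, and 928 and 1150 with imatinib. Cmpk2, a mitochondrial nucleotide kinase, had 892.5 and 493.4 in BCR/ABL, 591.6 and 786.6 in vector, and 511 and 781.1 with imatinib. Herc6, the mouse ligase that attaches Isg15, had 483 and 282 in BCR/ABL, 555.5 and 347.3 in vector, and 314.4 and 390.7 with imatinib. Their log2 differences were 0.95, 0.80 and 0.71. The other probe set of Cmpk2 passed 2-fold, at 1.06. Of the other probe sets of Herc6, only that at 1.59 passed it, while the rest gave 0.81 and 0.56. In each of the 3 genes the groups overlapped in every comparison except Usp18 with imatinib against untreated BCR/ABL.

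Stat2, a subunit of the ISRE-binding complex, had intensities of 222.4 and 137.4 in BCR/ABL, 421 and 251.9 in vector, and 218 and 258 with imatinib. Zbp1, a sensor of Z-form nucleic acid, had 1172 and 787.2 in BCR/ABL, 988 and 412.3 in vector, and 372.7 and 523.8 with imatinib. Irf7, the factor that amplifies type I interferon production, had 701.7 and 491.8 in BCR/ABL, 654.7 and 347.2 in vector, and 432.8 and 430 with imatinib. The log2 differences between the BCR/ABL arrays were 0.68, 0.55 and 0.49. The 12 genes named so far were those with the largest difference between the BCR/ABL arrays, and each was higher in replicate 1.

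The difference did not run through the whole list. Ifit3 had 277 and 289.8 in BCR/ABL, and its log2 difference was -0.04. Of the oligoadenylate synthetase genes and the kinase gene Eif2ak2, 4 of 6 were lower in replicate 1, and Oasl2 had the lowest difference of all 34, at -0.28. Irf9 stood at -0.12, Bst2 at -0.13, Trim30a at 0.00 and Parp14 at 0.02. Of the 16 genes with several probe sets, 8 had probe sets of either sign in this difference, namely Ddx58, Dhx58, Ifi35, Trim25, Trim30a, Parp14, Eif2ak2 and Tap1. None of the 6 genes above was among them: the 3 probe sets of Rsad2 gave 1.90, 1.32 and 1.57, and those of Gbp2 gave 2.23 and 2.27, while Mx1, Mx2, Ifit1 and Ifit2 had 1 probe set each.

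Among the 50 of 18193 genes most raised in BCR/ABL replicate 1 over replicate 2, 4 were of the list, namely Mx1, Gbp2, Rsad2 and Ifit1. These were 8% of the 50 and 11.8% of the 34, where the 34 were themselves drawn from the 18193. The list was chosen with earlier results of these data known, so this count is not independent of the difference described above. Ahead of Mx1 and Gbp2 stood Igk-V21, 4930447C04Rik, Sema3d, 2210407C18Rik, a further immunoglobulin kappa variable gene and Csn2, followed by Ankrd36 and Pyy to make 10. Among the 50 genes most raised in replicate 2 none was of the list, and the 10 leading ones were Vcam1, Cd5l, Iglv1, Marco, Igf2bp3, Rag1, Ly6k, Fcna, Kcnj10 and H3f3b. Of 74 further interferon-stimulated genes measured, 4 were more than 2-fold higher in replicate 1 (5.41%, against 1.37% of all genes). They were Ifit1bl1 at 1.61, Cxcl10 at 1.54, Iigp1 at 1.33 and Gbp6 at 1.08. Cxcl9, a chemokine induced by interferon gamma, was lower there at -1.26. The median of the 74 was 0.04. Between the vector arrays, 10 of the 74 were more than 2-fold higher in replicate 1 (13.5%, against 5.39% of all genes) and 2 lower. With imatinib, 2 were more than 2-fold higher in replicate 1, against 2.59% of all genes, and 5 lower, against 1.71%. The wider list thus did not set the BCR/ABL pair apart from the other pairs.

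Markers of other blood cells also differed between the BCR/ABL arrays. All 9 measured markers of monocytes and macrophages were lower in replicate 1 than in replicate 2 (median -0.37), with summed intensities of 12900 and 15640. Of 11 B cell markers, 3 were higher in replicate 1 (median -0.81), with sums of 1315 and 2446, and Pax5 lay under 16 on all arrays. The plasmacytoid dendritic cell markers, from a cell type known for its interferon production, summed to 5836 and 5491, with 4 of 11 higher in replicate 1 (median -0.07) and Tlr9 under 16 on all arrays. Of 11 granulocyte markers, 10 were lower in replicate 1 (median -0.18; sums of 72970 and 83610), whereas 7 of 8 erythroid markers were higher there (median 0.21; sums of 7889 and 7049), with Hba-a1 under 16 on all arrays. The T and NK cell markers and the mast cell and basophil markers had medians of -0.0090 and -0.0051, respectively. The part of these cells in the difference was not tested. In bulk RNA, fewer cells of a type and less RNA per cell cannot be told apart.

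**Figure D3:**
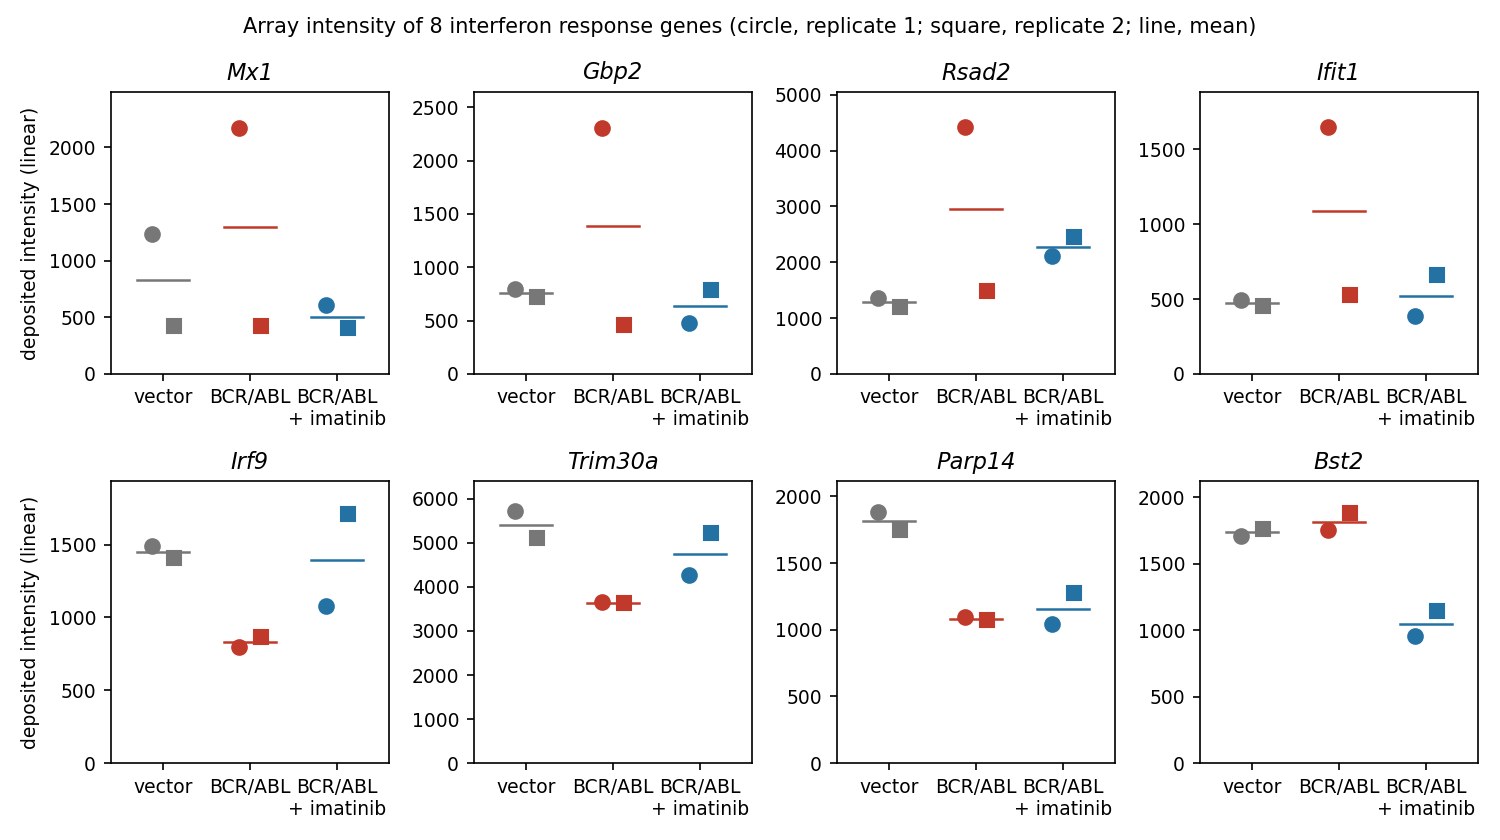
Deposited intensity on a linear axis from 0 for 8 genes, with circles for replicate 1, squares for replicate 2 and lines for the mean of each group. In the upper row (Mx1, Gbp2, Rsad2, Ifit1) BCR/ABL replicate 1 stands alone at 1650 to 4430; in the lower row the BCR/ABL arrays lie close together, under both vector arrays for Irf9, Trim30a and Parp14, and for Bst2 the imatinib arrays are the low ones.

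The comparison of BCR/ABL with vector asked which of these genes stood at another level in cells that expressed the fusion. None of the 34 passed the test in limma (adjusted p under 0.05), where 0.104% of all genes did. Parp14 came closest, with an adjusted p of 0.210. At the unadjusted level of 0.05 there were 9 of the 34, all lower, against 12.7% of all genes. In all, 21 were lower and 13 higher, and the median was -0.25 beside 0.01 over all genes. In 16 genes both BCR/ABL arrays lay under both vector arrays, or 47.1%, against 20.1% of all genes, and in 3 genes, Ifit1, Ifit3 and Rsad2, both lay above, or 8.82%, against 23.9%.

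The BCR/ABL arrays taken singly differed in how many genes exceeded the vector level. Replicate 1 lay above both vector arrays for 12 of the 34, against 36.2% of all genes, and below both for 18, against 30.8%. Replicate 2 lay above both for 5, namely Ifit1, Ifit3, Oas1a, Rsad2 and Bst2, against 34.6%, and below both for 23, against 31.6%. The 12 that exceeded vector in replicate 1 included the 6 with the 2-fold difference between the arrays. The share above vector was thus near that of all genes in replicate 1 and 14.7% in replicate 2.

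Transcription factors of the response were among the genes with the smallest p. Irf9, the DNA-binding subunit of the ISRE-binding complex, had intensities of 795.3 and 868.6 in BCR/ABL and 1490 and 1406 in vector. Irf1, a factor induced chiefly by interferon gamma, had 1156 and 991.8 in BCR/ABL and 1613 and 1788 in vector. In both genes every BCR/ABL array lay under every vector array. The log2 fold change was -0.81 (SE 0.24, adjusted p = 0.333 in limma) for Irf9 and -0.68 (SE 0.17, adjusted p = 0.293 in limma) for Irf1. Stat2 had -0.76 (SE 0.37) and also did not overlap between the groups, whereas Irf7 had 0.29 (SE 0.33) with overlapping groups.

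The sensors gave no common direction. Dhx58, which encodes the regulator LGP2 of the cytosolic RNA sensors, had 324.1 and 359.5 in BCR/ABL and 676 and 524.1 in vector, a log2 fold change of -0.73 (SE 0.25). Another probe set of Dhx58 had 0.43. Ifih1, which encodes the sensor MDA5, stood at -0.35 and did not overlap, while Ddx58, which encodes RIG-I, stood at 0.20 and Zbp1 at 0.53, with overlap in both. For Ddx58, a probe set of similar signal (mean intensity of 370 beside 400) gave -0.32 and a dim one gave 0.31, so its direction is open.

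Among the ubiquitin ligases, Trim30a, a restraint on Toll-like receptor signalling, had intensities of 3654 and 3623 in BCR/ABL and 5711 and 5100 in vector. Its log2 levels were 11.81 ± 0.00 (SD, n = 2) and 12.37 ± 0.12, a log2 fold change of -0.56 (SE 0.13, adjusted p = 0.262 in limma), and its other probe set gave -0.78. Trim25, which ubiquitinates RIG-I, had 3621 and 3450 in BCR/ABL and 4444 and 4254 in vector, a log2 fold change of -0.30 (SE 0.08). A dim probe set of Trim25, with a mean intensity of 106, gave 0.86 where the other bright one gave -0.31. Usp18 stood at 0.50 and Herc6 at -0.22, with overlapping groups. All other probe sets of Herc6 went the other way, at 0.37, 0.38 and 0.19.

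Parp14, an ADP-ribosyltransferase, had the smallest p of the 34 genes. It had intensities of 1093 and 1070 in BCR/ABL and 1879 and 1748 in vector. Both BCR/ABL arrays lay far under both vector arrays. Its log2 level was 10.09 ± 0.02 (SD, n = 2) in BCR/ABL and 10.85 ± 0.09 in vector, a log2 fold change of -0.76 (SE 0.15, adjusted p = 0.210 in limma), and its other probe set gave -1.11. Parp9, its partner gene, had 904.3 and 773.7 in BCR/ABL and 963.7 and 1297 in vector, a log2 fold change of -0.44 (SE 0.19).

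Of the genes for membrane and transport proteins, Tap1, the peptide transporter of antigen presentation, had 1366 and 1304 in BCR/ABL and 1757 and 1660 in vector. Its log2 fold change was -0.39 (SE 0.11), and a dim probe set gave 0.36. Rtp4, a receptor transport protein, had 1096 and 1120 in BCR/ABL and 1600 and 1732 in vector, a log2 fold change of -0.60 (SE 0.20). Neither overlapped between the groups. Bst2, or tetherin, which holds budding virus at the cell surface, stood at 0.04 (SE 0.14).

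The effector families differed in the sign of their means, and none of their genes passed the test. All 3 IFIT genes were higher in BCR/ABL, by 0.94 (SE 0.52) for Ifit1, 0.47 (SE 0.30) for Ifit3 and 0.21 (SE 0.41) for Ifit2. Without BCR/ABL replicate 1, Ifit1 stood at 0.15 and Ifit2 at -0.44. Of the oligoadenylate synthetase genes and Eif2ak2, which encodes the kinase PKR, 5 of 6 were lower, from -0.40 for Oasl2 to -0.22 for Eif2ak2, and Oas1a stood at 0.01. Rsad2 stood at 0.98 (SE 0.47), Gbp2 at 0.44 (SE 0.69) and Mx1 at 0.38 (SE 0.82), where the standard errors carry the spread between the BCR/ABL arrays. Gbp3 stood at -0.51 and Xaf1, a gene for a pro-apoptotic factor, at -0.62 without overlap. With BCR/ABL replicate 2 left out, the genes of which both vector arrays were exceeded numbered 12 instead of 3. Of all genes the share was 36.2% instead of 23.9%.

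**Figure D4:**
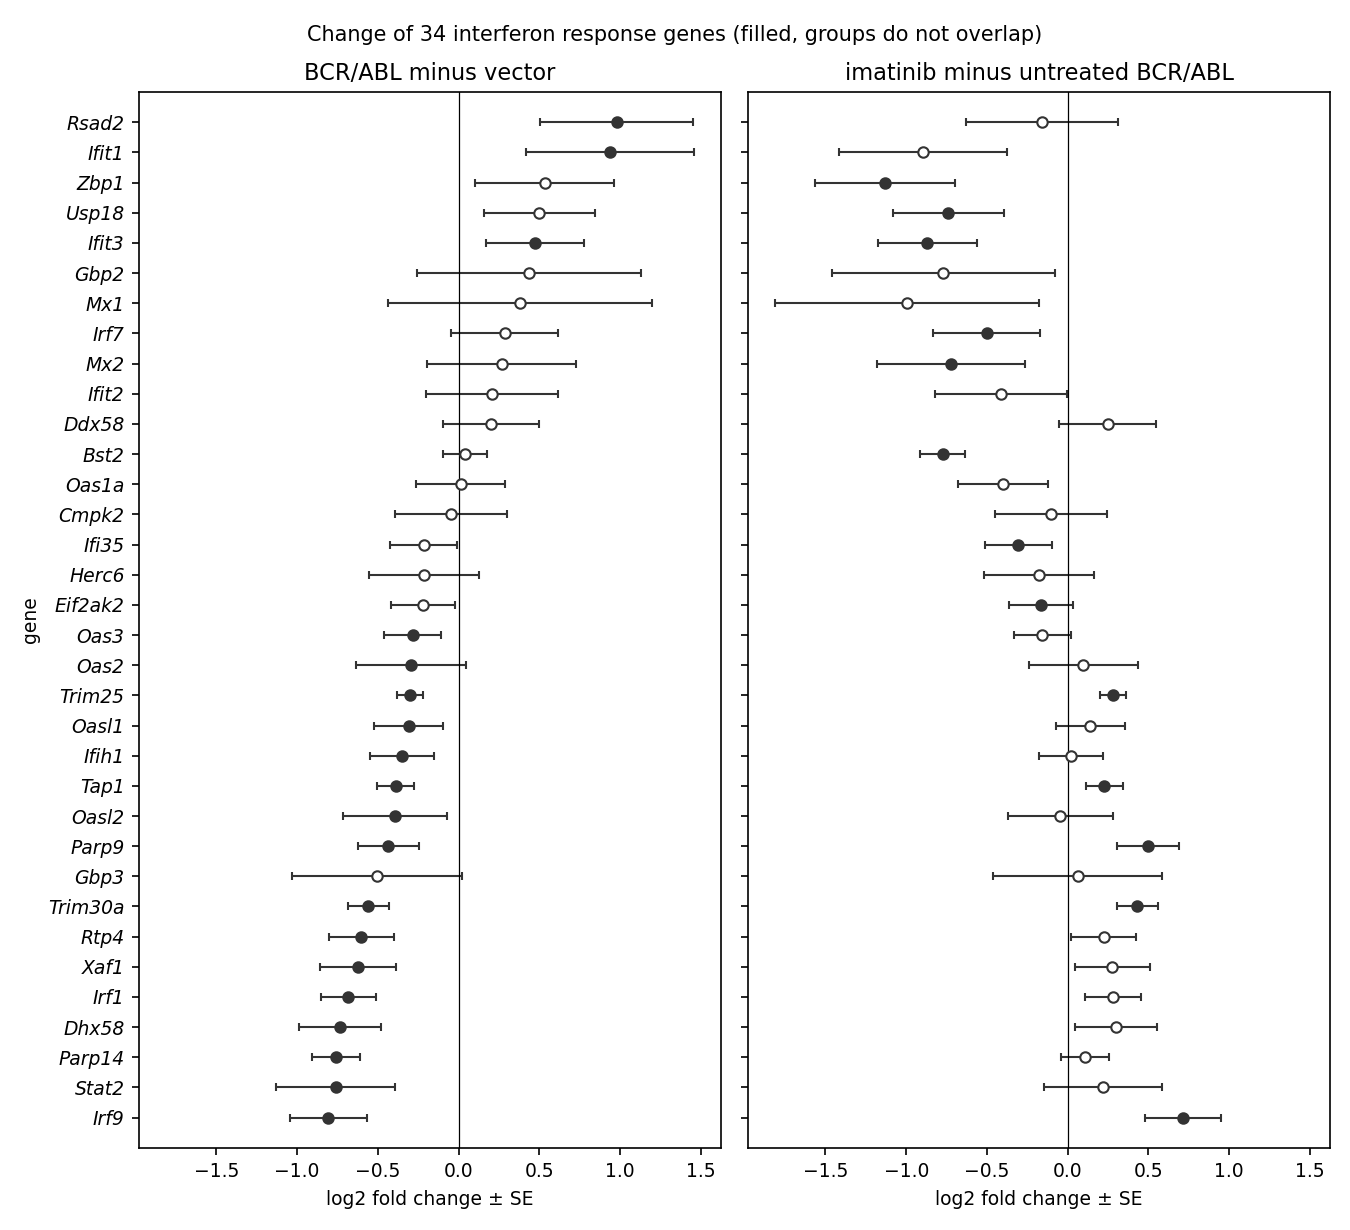
Points give the log2 fold change of each of the 34 genes with its standard error from limma, for BCR/ABL minus vector (left) and imatinib minus untreated BCR/ABL (right); filled points mark genes whose groups do not overlap, and the order of genes is that of the left panel. None passed the test in either panel; Irf9 is lowest at -0.81 and Rsad2 highest at 0.98 on the left, and the untreated BCR/ABL arrays enter both panels, so the panels are not independent.

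The scaling and the choice of probe set bear on these directions. Centring each array on its median, in place of quantile normalisation, moved the median of all features to 0.20 and that of the 34 genes to -0.04, and turned the sign of Eif2ak2 and Cmpk2. Relative to all features the 34 were lower under both scalings. Averaging all probe sets of a gene gave a median of -0.02 and turned the sign of Ifi35, Trim25, Cmpk2 and Herc6. In 7 of the 16 genes with several probe sets these had either sign.

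The markers of other blood cells differed between vector and BCR/ABL as well. All 11 measured B cell markers were lower in BCR/ABL (median -2.66), with summed intensities of 4806 to 22960 in vector and 1315 to 2446 in BCR/ABL. Of the plasmacytoid dendritic cell markers 10 of 11 were lower (median -1.13; 9668 to 13520 in vector, 5491 to 5836 in BCR/ABL), and of the T and NK cell markers 9 of 10 (median -0.91; 5779 to 6634 against 5056 to 5120). Markers of mast cells and basophils were higher for 10 of 11 (13460 to 18240 against 43630 to 44360). Every marker list, those of granulocytes and of mast cells and basophils included, had a higher sum on vector replicate 1 than on vector replicate 2. Vector replicate 1 was also the highest array for 12 of the 34 genes, against 20.7% of all genes. The part of these cells in the lower interferon response genes was not tested.

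The comparison of imatinib with untreated BCR/ABL asked whether inhibition of the kinase went with other levels of these genes. None of the 34 passed the test in limma, and 0% of all genes did; the smallest adjusted p of the 34 was 0.121. At the unadjusted level of 0.05 there were 7, of which 4 were higher and 3 lower, against 17% of all genes. The median was -0.07, with 16 higher and 18 lower. In 5 genes both imatinib arrays lay above both untreated arrays (14.7%, against 24.8% of all genes) and in 8 below (23.5%, against 26.7%). The share below was thus near that of all genes.

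Bst2 had the smallest p. Its intensities were 954.7 and 1144 with imatinib, 1751 and 1882 in untreated BCR/ABL, and 1709 and 1764 in vector. The imatinib arrays stood apart from the other 4. The log2 fold change was -0.77 (SE 0.14, adjusted p = 0.121 in limma), from 10.82 ± 0.09 (SD, n = 2) to 10.05 ± 0.19. With arrays centred on their medians Bst2 was the 1 gene of the list that passed, at an adjusted p of 0.0214 in limma. Over the alternatives run, the adjusted p of Bst2 ran up to 0.566.

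Ifit3 had 170.2 and 166.2 with imatinib, 277 and 289.8 untreated, and 267.9 and 168.9 in vector. The log2 fold change of Ifit3 was -0.87 (SE 0.30), and that of Zbp1 -1.13 (SE 0.43). Usp18 stood at -0.74 (SE 0.34). In these 3 genes both imatinib arrays lay under both untreated arrays. Mx1 stood at -0.997 (SE 0.82), Ifit1 at -0.90 (SE 0.52) and Gbp2 at -0.77 (SE 0.69), and their groups overlapped. For Mx1 and Ifit1 the intensity of BCR/ABL replicate 2 lay between those of the imatinib arrays, and for Gbp2 under both.

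Irf9 was on the other side. Its intensities were 1079 and 1713 with imatinib, 795.3 and 868.6 untreated, and 1490 and 1406 in vector. Both imatinib arrays lay above both untreated arrays, and they spanned the vector level. The log2 fold change was 0.71 (SE 0.24, adjusted p = 0.253 in limma). Trim30a had 4272 and 5218 with imatinib, a change of 0.43 (SE 0.13), Trim25 had 4136 and 4203, a change of 0.28 (SE 0.08), and Parp9 had 1128 and 1241, a change of 0.50 (SE 0.19). Of these, Trim25 had a negative value when arrays were centred on their medians and when its probe sets were averaged.

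Centring moved the median of all features to -0.27 in this comparison and that of the 34 genes to -0.35, and 10 of the 34 turned sign: Irf1, Oas2, Oasl1, Ifih1, Gbp3, Rtp4, Xaf1, Trim25, Parp14 and Tap1. Single arrays carried the median as well. It was 0.15 without BCR/ABL replicate 1, 0.11 without imatinib replicate 1 and -0.29 without imatinib replicate 2. Without BCR/ABL replicate 1 or without imatinib replicate 1, 15 genes were higher without overlap in place of 5. Groups with fewer arrays separate more easily in any gene, and the share of all genes is not given for this count. The rise from 5 to 15 can therefore not be read as a result about the 34 genes.

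BCR/ABL cells with imatinib were also set against vector, a comparison that shares its arrays with those above. None of the 34 passed the test in limma, against 0.0824% of all genes, and Bst2 came closest at an adjusted p of 0.150. At the unadjusted level of 0.05 there were 4, all lower, against 16.7% of all genes. The median was -0.36, with 30 lower and 4 higher, namely Rsad2, Ddx58, Parp9 and Ifit1; Parp9 and Ifit1 turned sign with arrays centred on their medians. In 14 genes both imatinib arrays lay under both vector arrays (41.2%, against 22.3% of all genes) and in 1, Rsad2, above (2.94%, against 21.9%). Taken singly, imatinib replicate 1 lay below both vector arrays for 27 of the 34, against 34.6% of all genes, and above both for 1, against 35.2%, while replicate 2 lay below both for 16, against 35.4%, and above both for 5, against 34.4%. Without imatinib replicate 1, the lowest array for 14 genes, the median was -0.11.

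Bst2 stood at -0.74 (SE 0.14, adjusted p = 0.150 in limma), and Parp14, with intensities of 1040 and 1277 with imatinib, at -0.65 (SE 0.15, adjusted p = 0.188 in limma). Ifi35, a leucine-zipper protein induced by interferon, had 3128 and 3612 with imatinib, 4219 and 4324 in untreated BCR/ABL, and 6172 and 4014 in vector. Oas3 had 580 and 733.4 with imatinib, 687.4 and 730.2 untreated, and 915.3 and 804.2 in vector. Eif2ak2 had 1127 and 1244 with imatinib, 1425 and 1272 untreated, and 1277 and 1862 in vector. Each of these 3 genes lay lower on both imatinib arrays than on both vector arrays, by -0.52 (SE 0.21), -0.44 (SE 0.18) and -0.39 (SE 0.20). Irf1 had 1134 and 1452 with imatinib and stood at -0.40 (SE 0.17), Rtp4 had 1056 and 1544 and stood at -0.38 (SE 0.20), and Rsad2 stood at 0.82 (SE 0.47). Another probe set of Ifi35 gave 0.63 and the other one of Rtp4 gave 0.21. In 6 of the 16 genes with several probe sets these had either sign against vector, and in 4 against untreated BCR/ABL.

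Markers of other blood cells differed in the imatinib comparisons too. Against vector, 11 of 11 B cell markers were lower with imatinib (median -3.82; sums of 718.7 to 1804 with imatinib), as were 10 of 11 plasmacytoid dendritic cell markers (median -1.12; 5691 to 7680) and 10 of 10 T and NK cell markers (median -0.89; 4372 to 5494). All 11 mast cell and basophil markers were higher (median 2.43; 58780 to 68700). Against untreated BCR/ABL, 10 of 11 B cell markers were lower (median -0.84) and 10 of 11 mast cell and basophil markers higher (median 0.94), while 6 of 11 plasmacytoid dendritic cell markers were higher (median 0.13). Their part in the levels of the interferon response genes was not tested.

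The remaining genes are given by range. Oas1a, Oas2, Oasl1, Oasl2, Ifih1, Ddx58, Gbp3 and Xaf1 had log2 fold changes from -0.62 to 0.20 in BCR/ABL against vector, from -0.40 to 0.28 in imatinib against untreated BCR/ABL and from -0.44 to 0.45 in imatinib against vector. Gbp3 differed most among replicates, with 792.9 and 710.3 in BCR/ABL, 672.8 and 1707 in vector, and 529.5 and 1174 with imatinib.

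The upstream parts of the pathway were read from further lists, none of whose members passed the test in any of the 3 comparisons in limma. Of the 21 interferon ligand genes listed, 10 were measured. Of these, 8 lay under 16 on all 6 arrays, among them Ifnb1, Ifnab and Ifna11, and Ifng, the gene of interferon gamma, reached 69.99 in vector replicate 1 and lay under 16 on the other 5 arrays. Ifnz was over 16 on every array, with 265.9 and 88.55 in BCR/ABL replicates 1 and 2, 211.6 and 196.1 in vector, and 283.3 and 305.1 with imatinib. It was thus more than 2-fold higher in BCR/ABL replicate 1 than in replicate 2, a log2 difference of 1.43, and was named after its values were seen. Low array signal does not show that a gene is silent, since it cannot be told from background here.

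Of the 6 receptor genes, 5 were lower in BCR/ABL than in vector, against 47.6% of all genes. With imatinib 5 were higher than without, against 49.0% of all genes, and none passed in either comparison. Ifngr1, a chain of the interferon gamma receptor, had 969.9 and 892.7 in BCR/ABL, 1577 and 1081 in vector, and 1756 and 1319 with imatinib. Ifnar2, a chain of the type I receptor, had 1024 and 1005, then 1317 and 1268, then 1348 and 1213, listed likewise. Their untreated BCR/ABL arrays were the lowest of the 6 in both genes. Il10rb, a chain of the lambda receptor, stood at -0.40 against vector, and Ifnlr1, its dim partner, at 0.75. Ifnar1 had 621.6 to 1066 over the 6 arrays, with BCR/ABL at 812.1 and 771. All 4 measured kinase and STAT genes, Jak1, Jak2, Tyk2 and Stat3, were higher with imatinib, from 0.08 for Tyk2 and 0.37 for Jak1 to 0.43 for Jak2 and 0.58 for Stat3 (adjusted p of Stat3 = 0.246 in limma).

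Of 17 genes of the induction pathway, 13 were lower in BCR/ABL than in vector (76.5%, against 47.6% of all genes). In 4 both BCR/ABL arrays lay under both vector arrays (23.5%, near the 20.1% of all genes). In 1 both lay above (5.88%, against 23.9%). Irf8, a factor of dendritic cell and monocyte development, had 929.7 and 966.2 in BCR/ABL, 4530 and 1888 in vector, and 865.2 and 1435 with imatinib, a log2 fold change of -1.62 for BCR/ABL against vector (adjusted p = 0.310 in limma). Myd88, an adaptor of Toll-like receptors, stood at 0.62, Irf2 at -0.49, Tbk1, the kinase that activates Irf3, at -0.22, and Irf3 at -0.21. Among the feedback inhibitors, Socs1, which blocks the Janus kinases, had 73.3 and 39.64 in BCR/ABL, 18.71 and 17.04 in vector, and 7.336 and 15.05 with imatinib. Its level was highest in the untreated BCR/ABL arrays and near the background on the others, so no fold is given (adjusted p = 0.338 in limma against vector and 0.142 for imatinib against untreated BCR/ABL). Pias1, Ptpn2 and Ptpn6 stood at -0.49, 0.28 and 0.18 against vector.

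The 74 further interferon-stimulated genes had a median of -0.10 in BCR/ABL against vector, with 47 lower and 27 higher, beside 0.01 over all genes. The 4 with the smallest p were Lap3 at 0.54, Irgm1 at -0.63, Psmb9 at -0.46 and Ifitm1 at 0.57 (smallest adjusted p = 0.242 in limma). Lap3, a leucine aminopeptidase, had 2096 and 2112 in BCR/ABL, 1470 and 1348 in vector, and 904.3 and 899.9 with imatinib, with a log2 fold change of -1.21 for imatinib against untreated BCR/ABL (SE 0.12, adjusted p = 0.102 in limma). Psmb9, an immunoproteasome subunit, had 3304 and 3282 in BCR/ABL, 4832 and 4287 in vector, and 3386 and 3654 with imatinib. Cxcl10, a chemokine of the interferon response, was named after its values were seen: it had 792.7 and 249.1 in BCR/ABL, 346.5 and 301.2 in vector, and 59.68 and 44.75 with imatinib. Cxcl10 thus shared the high level of BCR/ABL replicate 1 and was low on both imatinib arrays, at -2.95 against untreated BCR/ABL (SE 0.54, adjusted p = 0.121 in limma).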

How the data were processed

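Sorted mouse bone marrow stem cells were measured on 6 Affymetrix arrays, 2 in each of 3 groups; group and replicate number came from the sample titles. The deposited values are linear intensity values, 1 per probe set, and came from Affymetrix Expression Console and MAS5 per the submitters' processing notes, without stated versions. Mean intensity, trimmed by 2% at both ends, was 500 on every array. The series' design text names a whole-transcript array and its labelling kit, but the probe set identifiers belong to a 3-prime array of the mouse genome, and the values were taken as those of that array. Precision is limited by the number of arrays.

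Of the probe sets, 34945 were annotated to 1 gene, 932 to several and 9160 to none, and 64 controls were left out. Values were taken as log2(intensity + 16), which understates the fold of dim genes and sets a floor of 4. Array medians on this scale ran from 5.69 to 6.19, so arrays were quantile normalised. Tests used the R package limma, version 3.58.1 under R 4.3.3 (lmFit, contrasts, eBayes with a variance trend) in 1 model of all 6 arrays with 3 residual and 2.97 prior degrees of freedom. Tests were two-sided, with Benjamini-Hochberg adjustment over the 35877 probe sets with a gene and a threshold of 0.05; the code was tested on simulated data.

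The genes, roles and further lists were chosen with earlier results of these data known. Genes are given with the value on every array if they passed a test, were among the 8 smallest p of a comparison or the 12 largest differences between the BCR/ABL arrays. Of each further list, the 4 smallest p in BCR/ABL against vector are named. The difference of replicate 1 and replicate 2 correlated over genes at -0.04 between vector and BCR/ABL, 0.11 between BCR/ABL and imatinib, and 0.21 between vector and imatinib. The replicate numbers were not taken to pair the arrays, though these correlations cannot settle it. Alternatives were another scaling, values as deposited, pseudocounts of 1 and 64, filters at the 30th and 50th percentile of signal, other variance settings, a replicate block, the 2 groups alone, averaged probe sets and each array left out.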

Additional observations from a re-analysis of the deposited data

How the results depend on the processing

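Over 17 alternative settings in 3 comparisons, 80 of 1731 values of single genes turned sign. As none of the 34 genes passed the threshold in the main setting, none of these values could be of a gene that passed there. None of the 34 genes passed the test in limma under any alternative except Bst2 for imatinib against untreated BCR/ABL with arrays centred on their medians (1 gene). Centring gave a median of -0.044 for BCR/ABL against vector and of -0.35 for imatinib against untreated BCR/ABL, where the median of all features was 0.20 and -0.27, and averaged probe sets gave -0.019 for the former. Leaving out 1 array moved the median of imatinib against untreated BCR/ABL between -0.29 and 0.15 and that of imatinib against vector between -0.48 and -0.11. Counts of genes whose groups did not overlap changed when single arrays were left out, and fewer arrays separate more easily in any gene. These counts were tried under alternatives chosen after seeing the data. Shares of all genes are not given beside them here, and centring moved all features, so these counts cannot be read as a result about the 34 genes. For BCR/ABL against vector, 5 genes were higher when centred, 5 with averaged probe sets, and 5 to 12 with 1 array left out (12 without BCR/ABL replicate 2), beside 3. For imatinib against untreated BCR/ABL, 1 was higher when centred and 6 to 15 with 1 array left out, beside 5, and 13 were lower when centred and 9 to 17 with 1 array left out, beside 8. For imatinib against vector, 2 were higher in the values as deposited and 1 to 5 with 1 array left out, beside 1, and 23 were lower when centred and 16 to 27 with 1 array left out, beside 14. More than 2-fold differences between the BCR/ABL arrays numbered 8 when centred (5 relative to all genes, whose median was then 0.17), 5 in the values as deposited and with a pseudocount of 64, and 6 otherwise.

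With the replicate number as a block, no gene of the list passed the test, all fold changes were the same by construction, and the smallest adjusted p in limma was 0.286 for BCR/ABL against vector, 0.145 for imatinib against untreated BCR/ABL and 0.190 for imatinib against vector. Since the replicate numbers were not taken to pair the arrays, this was not used further. Detection calls were not used here, so the signal of dim genes such as Mx2 cannot be separated from background.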
